A study of Sus scrofa with 20 samples.

Results

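The genes described here are 9 genes whose RNA marks pyramidal cell fields of the hippocampus. They were chosen by name from knowledge of the rodent brain and not by their values, but with earlier results of these data known. They are WFS1, FIBCD1, POU3F1 and MAN1A1 for field CA1, BOK and CPNE4 for field CA3, AMIGO2 for field CA2, and NECAB1 and ZBTB20, which were not set to 1 field. They are 9 of the 13755 genes with a symbol in the platform annotation. All 9 had at least 1 probe set above the filter on dim probe sets, a mean of 5.53 on the log2 scale, and 15 of their 19 probe sets passed it. Each gene was represented by the probe set with the highest mean over all arrays, and the others were used to see whether probe sets of a gene agreed.

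RNA came from the hippocampus of German Landrace pigs, labelled adult and slaughtered at some months of age per the methods, 10 high-reactive (HR) and 10 low-reactive (LR), with 1 Affymetrix porcine Snowball array for each animal. Both groups are extremes of the backtest, in which a piglet is held on its back and its struggling is scored, and the methods state that haplotypes at a coping behavior locus also served to choose them. The labels name no treatment, sex, litter or batch of arrays, and the hippocampus was taken as a whole, so that fewer cells of a field and less RNA per cell cannot be told apart.

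The hippocampus proper is a chain of pyramidal cell fields. Granule cells of the dentate gyrus send mossy fibres to CA3, whose pyramidal cells project through the Schaffer collaterals to CA1, the main output field, while the small CA2 field lies between them and is known in mice for its part in social memory. The fields look alike under the microscope but differ in the genes they express, and in mice a field can be told by RNA for single genes such as Wfs1 in CA1 and Amigo2 in CA2. Most of this knowledge comes from mice, and no field was dissected here.

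Any pair of arrays correlated at 0.844 to 0.988. The first principal component of the kept probe sets held 48.0% of the variance, with LR replicate 1 at its low end and HR replicate 5 at its high end. Marker lists for 10 other cell classes held 50 genes above the filter, of which 5 had an unadjusted p under 0.05 in limma and 0 an adjusted one. The 5 were TLE4, GJA1, SNAP25 and NEFM, higher in HR, and PVALB, lower in HR. Over all kept probe sets 11.5% had such an unadjusted p, so 5 of 50 was near the general share. The myelin list had a mean level of 11.3 to 11.7 in HR and 11.3 to 11.6 in LR arrays and the neocortical list of 7.80 to 8.06 and 7.73 to 8.03. The choroid plexus list went from 6.75 to 8.52 in HR and from 6.67 to 8.23 in LR arrays. The brightest gene of each list differed between HR and LR by 0.03 ± 0.05 log2 (SE) for MBP of myelin, 0.18 ± 0.11 for SLC1A3 of astrocytes, 0.03 ± 0.09 for SYT1 of neurons, -0.06 ± 0.10 for SST of interneurons, -0.12 ± 0.16 for C1QC of microglia, 0.44 ± 0.71 for TTR of choroid plexus, -0.07 ± 0.10 for FEZF2 of neocortex, 0.13 ± 0.10 for STXBP6 of granule cells, 0.04 ± 0.05 for FLT1 of endothelium and 0.17 ± 0.08 for TCF7L2 of thalamus. A brightest gene does not stand for its list, since the median difference was 0.01 for the astrocyte list, 0.09 for the thalamus list, 0.15 for the neuron list and 0.28 for the choroid plexus list. The granule cell gene PROX1 and the pyramidal cell genes SLC17A7 and NEUROD6 lay above the filter, and the granule cell markers DSP, TDO2 and CALB1 did not.

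The first question was whether HR and LR hippocampus differed in these genes. None of the 9 passed the adjusted threshold in limma, and 0 of the 9 had an unadjusted p under 0.05. Over all 23861 kept probe sets, 0% passed the adjusted threshold and 11.5% had an unadjusted p under 0.05, of which 7.78% of the probe sets were higher and 3.74% lower in HR. The arrays of HR and LR overlapped for each of the 9 genes, and the groups did not overlap for 0% of the kept probe sets. The median HR minus LR difference was -0.04 log2 over the 9 genes and -0.01 over the kept probe sets.

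Among the CA1 genes, WFS1 encodes wolframin, a membrane protein of the endoplasmic reticulum whose loss causes Wolfram syndrome in humans. It lies on pig chromosome 8 (Sscrofa 11.1, chr8:4362678-4405185). Its log2 value was 8.15 at the lowest, 8.56 at the median and 9.30 at the highest in HR arrays, against 8.57, 8.83 and 9.49 in LR arrays. HR arrays thus reached lower, and 7 of 10 lay below the LR median. HR replicates 2, 5, 6, 7, 8 and 9 lay below the lowest LR array, and the other HR arrays lay within the LR range. The mean was 8.66 ± 0.35 for HR and 8.92 ± 0.32 for LR arrays (SD, n = 10 per group), which is a difference of -0.26 ± 0.14 log2 (SE) with a 95% interval of -0.55 to 0.04 (limma, p = 0.0821, adjusted p = 0.474).

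MAN1A1 encodes a Golgi mannosidase that trims N-linked glycans (chr1:42729722-42896290). It showed a difference of about the same size as WFS1 but of the other sign. HR arrays lay at 7.16, 7.80 and 8.36 (lowest, median and highest log2 value) and LR arrays at 7.002, 7.45 and 7.88. In HR 7 of 10 arrays were above the LR median, and HR replicates 2, 5, 6, 7 and 8 lay above the highest LR array. The lowest HR array was within the LR range. The means were 7.70 ± 0.40 and 7.45 ± 0.25, a difference of 0.25 ± 0.14 log2 with a 95% interval of -0.04 to 0.54 (limma, p = 0.0890, adjusted p = 0.479).

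FIBCD1 encodes a membrane receptor for acetylated sugars such as those of chitin, and its RNA marks CA1 in mice (chr1:270919793-270956753). Its HR arrays lay at 7.16, 7.605 and 7.73 and its LR arrays at 7.37, 7.62 and 7.99. The medians were close, with 2 HR arrays below the LR range and 3 LR arrays above the HR range, and the means differed by -0.13 ± 0.09 log2 (limma, p = 0.165, adjusted p = 0.558). POU3F1 encodes a POU domain transcription factor, also called Oct6 or SCIP, that is known for its role in Schwann cells (chr6:94025133-94028053). Its log2 values were 6.05, 6.54 and 6.92 in HR and 6.35, 6.59 and 6.67 in LR. The LR range lay wholly inside the HR range, and the difference was -0.04 ± 0.08 log2 (limma, adjusted p = 0.862).

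Of the CA3 genes, BOK encodes a BCL2 family protein linked to cell death (chr15:140171134-140184126). HR arrays lay at 6.75, 7.04 and 7.08 and LR arrays at 6.49, 7.02 and 7.44, so that the LR group held both the lowest and the highest array. The difference was -0.04 ± 0.08 log2 (limma, adjusted p = 0.861). CPNE4 encodes a copine, a protein that binds phospholipids in the presence of calcium (chr13:367801-963775). Its HR arrays lay at 9.94, 10.4 and 10.7 and its LR arrays at 9.79, 10.3 and 10.6, nearly the same range, with a difference of 0.07 ± 0.10 log2 (limma, adjusted p = 0.779).

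The CA2 gene AMIGO2 encodes an adhesion protein with leucine-rich repeats and an immunoglobulin domain (chr5:77642144-77645748). Its log2 values were 7.70, 7.97 and 8.17 in HR and 7.61, 8.05 and 8.43 in LR. The HR range lay inside the LR range, and the difference was -0.01 ± 0.09 log2 (limma, adjusted p = 0.961). NECAB1, a neuronal calcium-binding protein with EF hands (chr4:45981777-46239673), lay at 7.90, 8.13 and 8.59 in HR and at 8.004, 8.198 and 8.79 in LR, with a difference of -0.11 ± 0.10 log2 (limma, adjusted p = 0.660). ZBTB20, a zinc finger repressor that the developing CA1 field needs in mice (chr13:144855821-145668320), had the same median in both groups, 9.18. Its lowest and highest log2 values were 8.93 and 9.54 in HR and 9.05 and 9.58 in LR, and the difference was -0.01 ± 0.08 log2 (limma, adjusted p = 0.976).

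**Figure D1:**
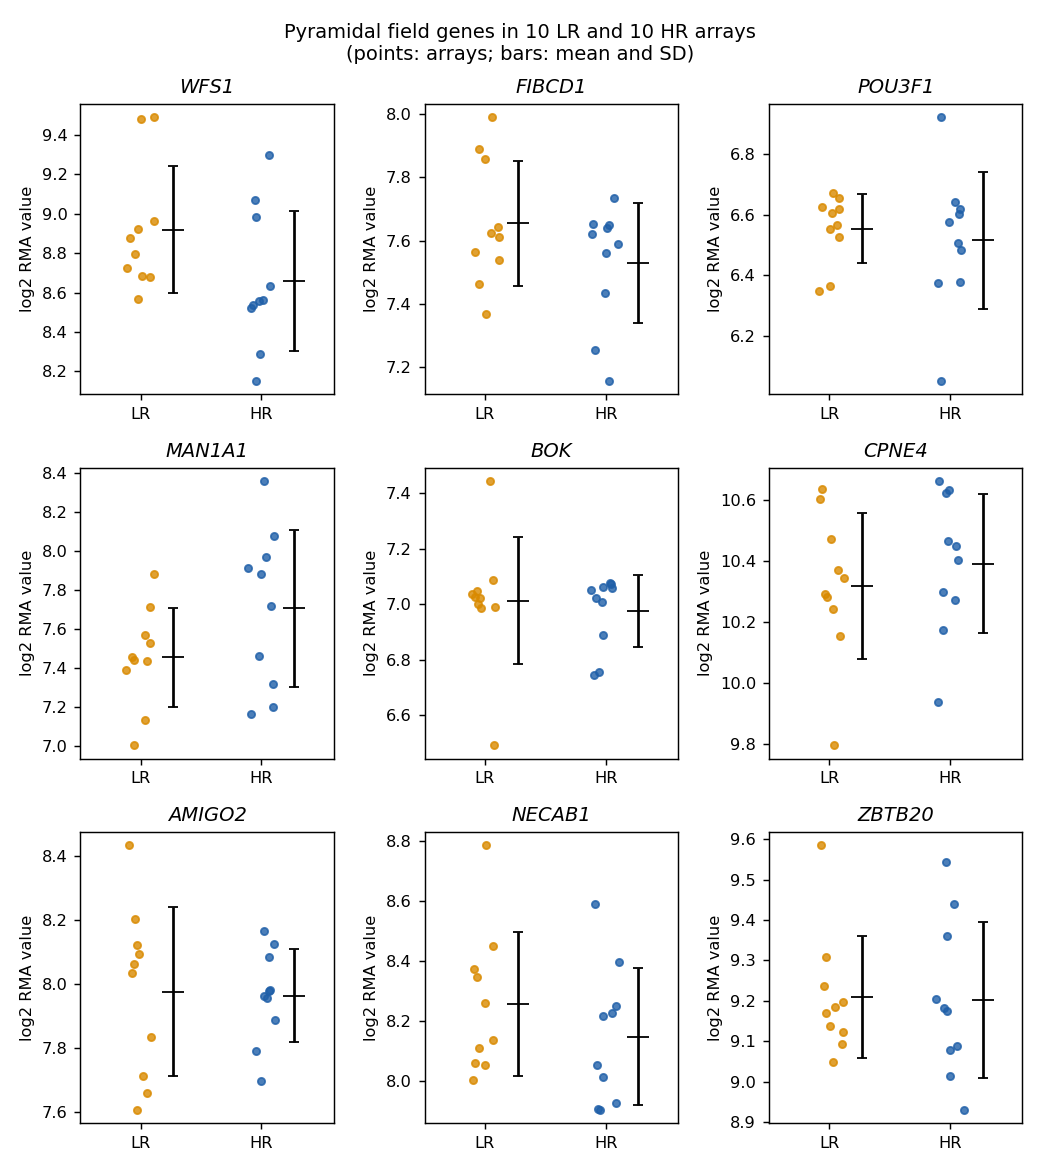
Log2 RMA value (vertical axis) of the brightest probe set of each of the 9 genes in 10 LR and 10 HR arrays, each point being 1 array and the bars the mean and SD. Points of both groups overlap in every panel, and the shift of WFS1 is -0.26 and that of MAN1A1 0.25 log2.

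The small differences moved with 2 measures of the arrays. The mean of 24 GC-rich background probe sets, controls with no transcript of their own, was a log2 level of 7.31 ± 0.20 in HR and 7.50 ± 0.20 in LR (SD), and the number in the sample title, whose meaning is not stated, was 2863 ± 109 in HR and 2601 ± 225 in LR. When the title number was a covariate, the difference of WFS1 was 0.06 and that of MAN1A1 -0.02 log2, and with the GC-rich background level they were -0.01 and -0.03. CPNE4 turned from 0.07 to -0.19 with the title number (limma, unadjusted p = 0.0517), and AMIGO2 moved from -0.01 to -0.16 with the GC-rich background level (unadjusted p = 0.0509). In the opposite direction, WFS1 and MAN1A1 were at -0.32 and 0.31 with the choroid plexus level as a covariate (unadjusted p = 0.0251 and 0.0285). In that fit 4730 of the 23861 kept probe sets had an unadjusted p under 0.05. Neither WFS1 nor MAN1A1 passed the adjusted threshold in any of these fits.

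**Figure D2:**
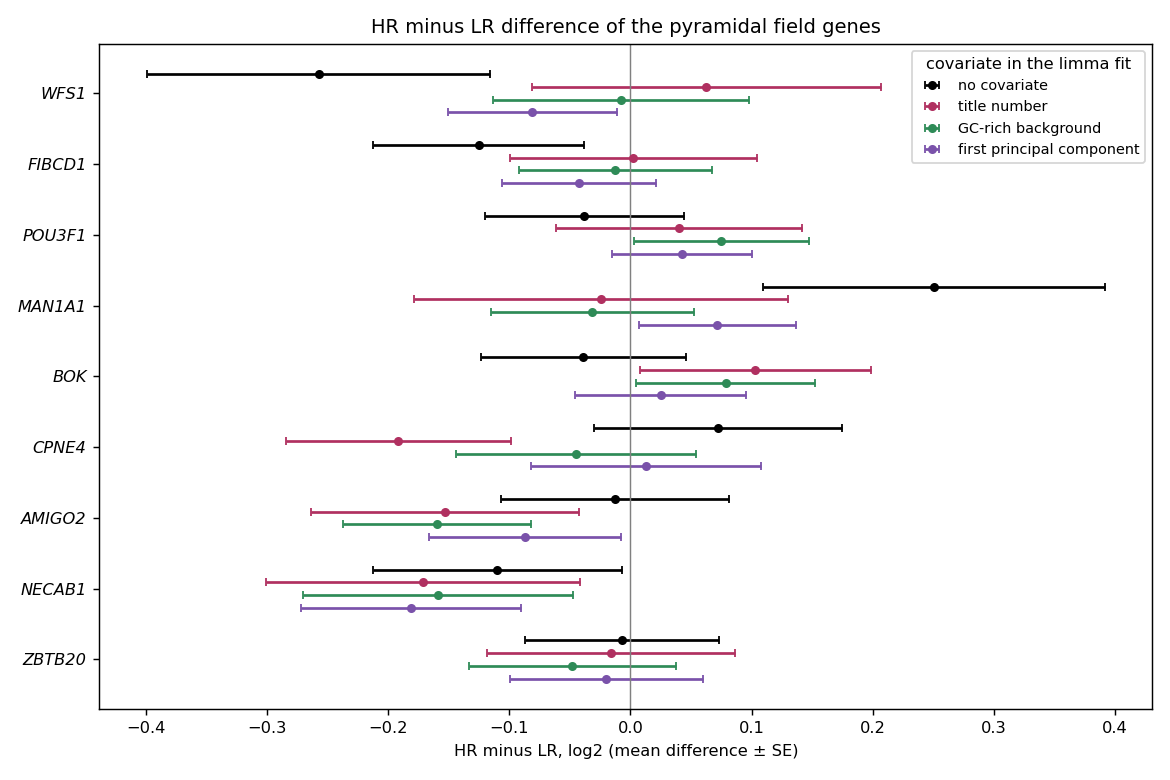
HR minus LR difference in log2 units (horizontal axis, points with SE) of the 9 genes from limma fits with no covariate and with each of 3 array measures as a covariate. The difference of WFS1 moves from -0.26 to 0.06 and that of MAN1A1 from 0.25 to -0.02 with the title number. The title number is largely confounded with the group.

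The second question was whether genes of a field rose and fell together across the 20 arrays. By the brightest probe sets, r had both signs among the CA1 genes and was negative between the CA3 genes, but the CA1 part of this rests on 1 probe set of MAN1A1, whose other kept probe set gave the opposite signs. Of 36 pairs of the 9 genes, 13 passed a permutation test of Pearson's r with Benjamini-Hochberg adjustment, 7 with a positive and 6 with a negative r. That is 36.1% of the pairs, and 37.9% of the 53173828 pairs of measured genes had an r at least as far from 0 as the smallest that passed, 0.530, so the share was near that of genes in general. By Spearman's rho 16 pairs passed, 12 of them among the 13. All 13 had the same sign within HR and within LR.

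By the brightest probe sets all 6 pairs within CA1 passed, 3 in each direction. WFS1 rose with FIBCD1 (r = 0.688, rho = 0.581, permutation adjusted p = 0.0121 and 0.0302) and with POU3F1 (r = 0.670, rho = 0.740, adjusted p = 0.0121 and 0.0042), and FIBCD1 rose with POU3F1 (r = 0.613, rho = 0.611, adjusted p = 0.0259 and 0.0240). The brightest probe set of MAN1A1 ran against all 3. Its r was -0.823 with WFS1 (rho = -0.892, adjusted p = 0.00036 for each), which was -0.903 within HR and -0.643 within LR. It was -0.636 with FIBCD1 (rho = -0.549, adjusted p = 0.0139 and 0.0417) and -0.685 with POU3F1 (rho = -0.650, adjusted p = 0.0113 and 0.0181). The other kept probe set of MAN1A1 was positive with WFS1 (r = 0.584, rho = 0.623, adjusted p of r = 0.0265 over 36 pairs with it in place), FIBCD1 (r = 0.511, rho = 0.465, adjusted p of r = 0.0548) and POU3F1 (r = 0.430, rho = 0.611, adjusted p of r = 0.12). With it all 6 pairs within CA1 had a positive r, and 4 of them passed. By the brightest probe set, the array with the highest MAN1A1, HR replicate 5 at 8.36, had the lowest WFS1 at 8.15, the lowest FIBCD1 at 7.16 and the lowest POU3F1 at 6.05. The array with the lowest MAN1A1, LR replicate 1 at 7.002, had the highest FIBCD1 at 7.99 and a WFS1 of 9.48, next to the highest of 9.49.

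The CA3 genes went apart from each other. BOK and CPNE4 had an r of -0.559 (rho = -0.477, permutation adjusted p = 0.0383 and 0.0766). BOK instead rose with the CA1 genes WFS1 (r = 0.561, rho = 0.541, adjusted p = 0.0364 and 0.0417), FIBCD1 (r = 0.605, rho = 0.523, adjusted p = 0.0265 and 0.0463) and POU3F1 (r = 0.635, rho = 0.782, adjusted p = 0.0265 and 0.0013). CPNE4 passed with no CA1 gene by r, and its r with WFS1 was -0.509 (rho = -0.457, adjusted p = 0.0539 and 0.0872).

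The CA2 gene AMIGO2 fell as BOK rose (r = -0.657, rho = -0.594, permutation adjusted p = 0.0137 and 0.0271) and as WFS1 rose (r = -0.545, rho = -0.547, adjusted p = 0.0383 and 0.0417), and it rose with the brightest probe set of MAN1A1 (r = 0.530, rho = 0.656, adjusted p = 0.0456 and 0.0181). With the other kept probe set of MAN1A1 the sign was turned (r = -0.677, rho = -0.689, adjusted p of r = 0.0161). LR replicate 7, with the highest AMIGO2 at 8.43, had the lowest BOK at 6.49. With CPNE4 the r was 0.498 (rho = 0.629, adjusted p = 0.0579 and 0.0238). The brightest probe sets of NECAB1 and ZBTB20 were in no pair that passed, and the r between them was 0.267 (adjusted p = 0.386).

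**Figure D3:**
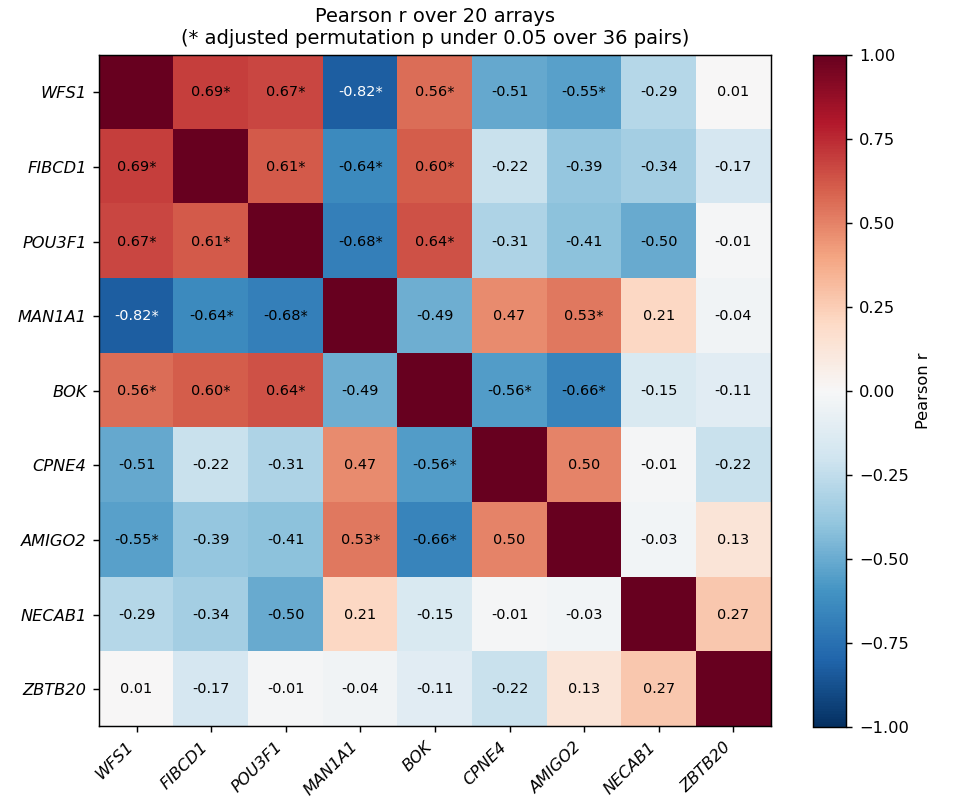
Pearson r over 20 arrays for each pair of the 9 genes, both axes listing the genes and colour giving r from -1 to 1, with a star where the permutation p adjusted over 36 pairs was under 0.05. The brightest probe set of MAN1A1, to which its other kept probe set is opposite, is negative with WFS1, FIBCD1 and POU3F1, and BOK is positive with those 3 genes and negative with CPNE4.

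**Figure D4:**
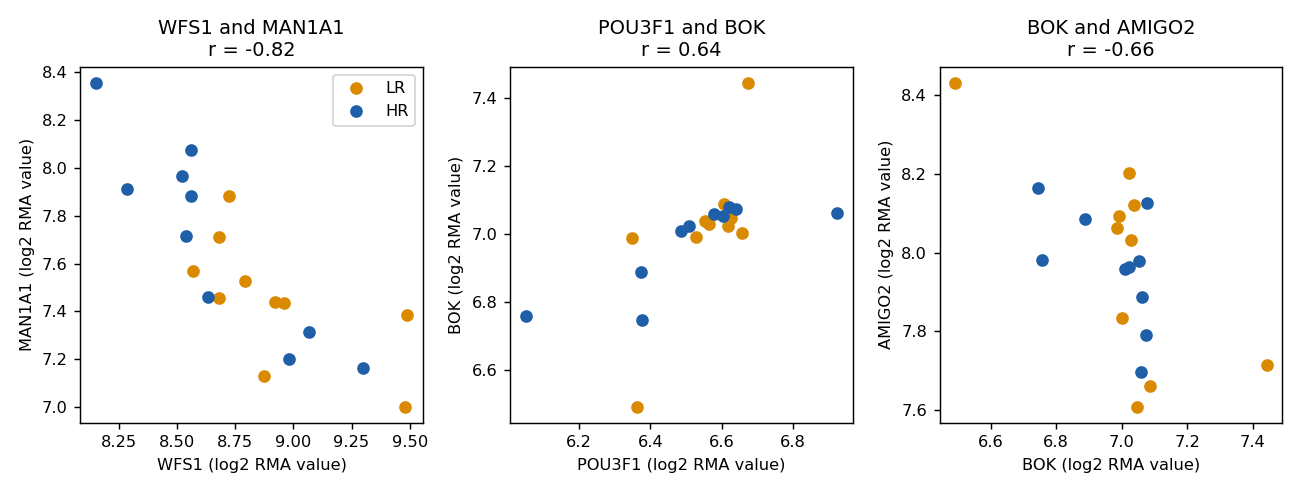
Log2 RMA values of 3 pairs of genes on both axes, each point being 1 array, coloured by LR and HR. WFS1 and MAN1A1 have an r of -0.82, POU3F1 and BOK of 0.64, and BOK and AMIGO2 of -0.66, each with the same sign within LR and within HR. The r of BOK and AMIGO2 is -0.40 without the 2 arrays farthest from the median of BOK.

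Several of these relations rested on few arrays. When the 2 arrays farthest from the median of the first gene of a pair were left out, 4 of the 13 pairs passed, adjusted over the 13. These were WFS1 with MAN1A1 (r = -0.849), WFS1 with POU3F1 (0.697), POU3F1 with BOK (0.725) and MAN1A1 with AMIGO2 (0.602). The other 9 kept their sign, with r down to 0.345 for FIBCD1 with BOK, and rest in part on those arrays. The adjustment covered only the 13 pairs already picked by passing, which is lenient. Without HR replicate 5 the number of pairs that passed was 2, and without LR replicate 1 it was 7.

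Apart from BOK with CPNE4, the pairs that passed joined genes that followed the first principal component. This component is computed from all kept probe sets, these genes included. The r with it was 0.926 for MAN1A1 and -0.910 for WFS1 (rho = 0.920 and -0.866, permutation adjusted p = 0.00024 for each r, over 72 relations of 9 genes with 8 array measures). It was -0.772 for POU3F1, -0.767 for FIBCD1, -0.601 for BOK and 0.566 for AMIGO2 (rho = -0.777, -0.663, -0.641 and 0.612, adjusted p of r at most 0.0418). The r of CPNE4 (0.465), NECAB1 (0.420) and ZBTB20 (0.117) did not pass. The other kept probe set of MAN1A1 was at -0.701 (rho = -0.750, adjusted p of r = 0.0056), on the side of WFS1, and 1 of the other kept probe sets of ZBTB20 was at 0.875 (rho = 0.860, adjusted p of r = 0.00014). For the brightest probe sets, the genes on each side of 0 are those that ran against each other in pairs. With the component removed from the values, 0 of 36 pairs passed and the r of WFS1 with MAN1A1 was 0.12.

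The size of these relations was common on the arrays. The median r of a kept probe set with the component was 0.665 regardless of sign, and 32.3% of kept probe sets had one as large as FIBCD1 and 59.1% as large as BOK. WFS1 and MAN1A1 were further out, with 6.02% and 3.90% of probe sets as far from 0. The first component shared 82.9% of the variance of WFS1, 85.7% of that of MAN1A1 and 1.36% of that of ZBTB20 by their brightest probe sets. WFS1 and MAN1A1 also varied most among the 9 genes, with an SD over the 20 arrays of 0.36 and 0.35 log2 against a median of 0.21 over the kept probe sets.

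The GC-rich background level passed with the same 6 genes. Its r was -0.891 with MAN1A1, 0.806 with WFS1, 0.661 with FIBCD1, 0.639 with BOK, 0.634 with POU3F1 and -0.629 with AMIGO2 (rho = -0.871, 0.774, 0.493, 0.594, 0.626 and -0.626, permutation adjusted p of r at most 0.0151, where that of rho did not pass for FIBCD1). Such an r was common, with a median of 0.596 over the kept probe sets regardless of sign, and 39.2% of them were as far from 0 as FIBCD1, 43.1% as BOK, 44.0% as POU3F1 and 44.8% as AMIGO2, against 14.1% for WFS1 and 2.92% for MAN1A1. The other kept probe set of MAN1A1 was at 0.765 (rho = 0.795). The level itself had an r of -0.887 with the first component. With the level removed from the values 0 of 36 pairs passed, and the part of the background in the relations between genes cannot be told apart from that of the component. The title number passed with WFS1 (r = -0.695, rho = -0.659), CPNE4 (0.690, rho = 0.593) and MAN1A1 (0.628, rho = 0.644), with adjusted p of r of at most 0.0133. Of the kept probe sets, whose median r was 0.420 regardless of sign, 7.67%, 8.19% and 15.3% were as far from 0 as these, and the other kept probe set of MAN1A1 was at -0.534. With the title number removed from the values, 3 pairs passed.

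The 9 genes were also set against the mean levels of marker lists. The brightest probe set of MAN1A1 fell as the myelin list rose (r = -0.644, rho = -0.543, permutation adjusted p = 0.0133 and 0.0686), and this r was -0.660 within HR and -0.637 within LR. It was 0.269 for the other kept probe set of MAN1A1 (rho = 0.298, adjusted p of r = 0.431). The relation of the brightest was the only 1 of 45 relations with the myelin, granule cell, general pyramidal, choroid plexus and neocortical lists that passed. How many kept probe sets were as far from 0 with the myelin list was not computed, so this relation cannot be called particular to MAN1A1. The myelin list itself had an r of -0.592 with the first component. A list's mean can hide members on both sides of 0. With the first component the astrocyte gene GJA1 had an r of 0.924 but ALDH1L1 of -0.801. The neuronal gene SYT1 was at 0.922 but RBFOX3 at -0.618, and the myelin gene MAG at -0.875 but MOBP at 0.734. The r was positive for 4 and negative for 2 astrocyte genes, 6 and 1 neuronal genes, and 1 and 4 myelin genes. Over all 8 measures 16 of 72 relations passed, and 11 of the 16 passed again, adjusted over the 16, without the 2 arrays farthest from the median of the measure. The 5 that did not were those of FIBCD1, POU3F1 and BOK with the GC-rich background level, of BOK with the first component and of CPNE4 with the title number.

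**Figure D5:**
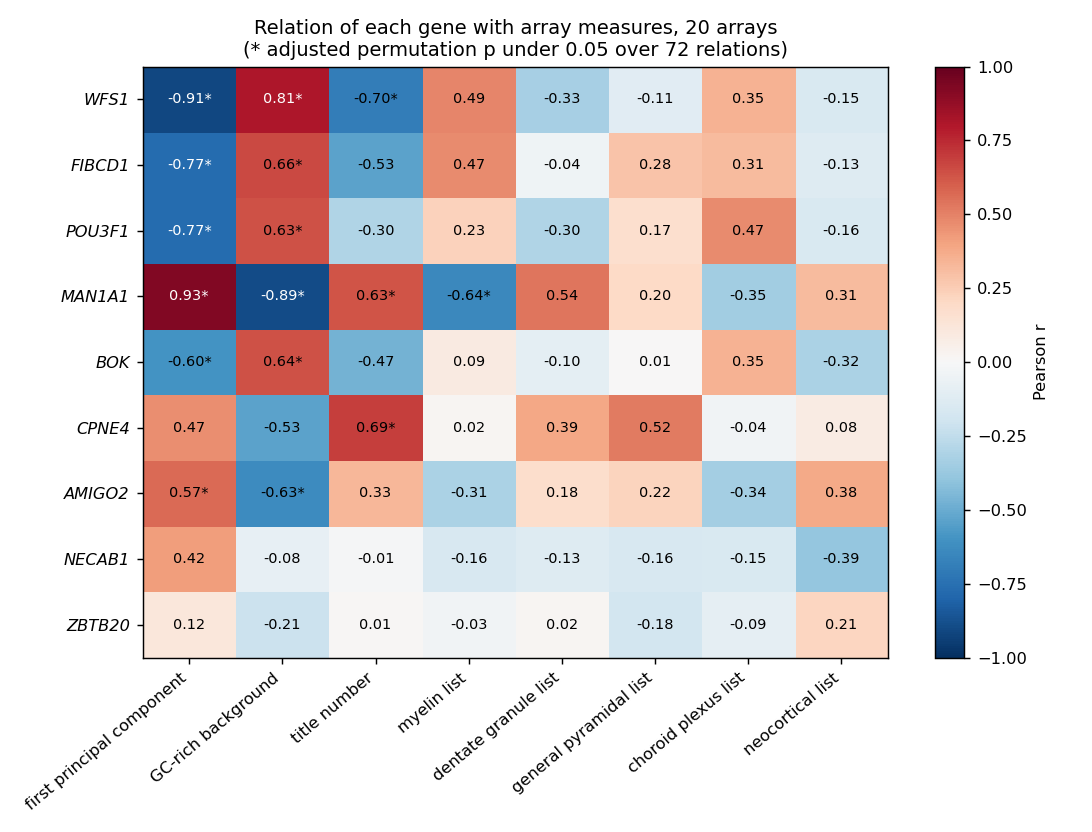
Pearson r over 20 arrays of each of the 9 genes (vertical axis) with 8 array measures (horizontal axis), colour giving r from -1 to 1, with a star where the permutation p adjusted over 72 relations was under 0.05. The first component and the GC-rich background level each have 6 stars, and ZBTB20 and NECAB1 have none by their brightest probe sets.

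Probe sets of a gene did not always agree. The second kept probe set of MAN1A1 had an r of -0.643 with the brightest (rho = -0.699, permutation adjusted p = 0.0030 and 0.0011 over 6 relations), and its HR minus LR difference was -0.12 ± 0.09 log2 against 0.25 for the brightest. The direction of MAN1A1 therefore depends on the probe set. CPNE4 had a second kept probe set with an r of 0.922 and a difference of 0.05 ± 0.09, and that of NECAB1 had an r of 0.754 and a difference of 0.07 ± 0.19. Of the 3 other kept probe sets of ZBTB20, 2 followed the brightest with an r of 0.878 and 0.866. The remaining one did not pass (r = 0.436, rho = 0.377, adjusted p = 0.0546), with a difference of 0.18 ± 0.15 log2. That probe set had an r of -0.829 with WFS1, -0.697 with FIBCD1, -0.616 with POU3F1, 0.757 with MAN1A1, -0.590 with BOK and 0.657 with AMIGO2 (rho = -0.722, -0.513, -0.677, 0.746, -0.556 and 0.668), and with it in place of the brightest 23 of 36 pairs passed. Whether ZBTB20 moved with the other genes therefore depends on the probe set too. The share of gene pairs in general was not computed at the cut of those 23 pairs. The ZBTB20 probe set in them had an r of 0.875 with the first component. The dim probe sets of WFS1 and POU3F1, which did not pass the filter, had an r of 0.45 and 0.10 with the brightest. CPNE4 also had dim probe sets below the filter, with means of 1.73 and 2.35 log2. Their r with the brightest was -0.09 and -0.27.

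For each gene the 3 genes with the highest r over the 20 arrays were named, as a description of likeness among 10313 genes. WFS1 was most like PNPLA2 (0.959), CALY (0.958) and USP11 (0.958), and FIBCD1 most like SCAF1 (0.926), NCDN (0.917) and BRSK1 (0.906). POU3F1 was most like LRP1 (0.860), UBTD1 (0.858) and TMEM175 (0.856). MAN1A1 was nearest to KIAA2018 (0.969), CRK (0.969) and STOX2 (0.968). BOK was nearest to ADAMTSL4 (0.912), SPG7 (0.882) and PARP10 (0.876), and AMIGO2 to SLC31A1 (0.869), MFF (0.834) and MTPAP (0.828). CPNE4 was most like CPNE1 (0.928), ARF4 (0.915) and SNX3 (0.904). CPNE1 is a gene of the same family, and whether their probe sets share signal was not tested. NECAB1 was most like JMJD1C (0.935), KIF21A (0.928) and HSPA4L (0.926). The nearest genes of ZBTB20 were further away, SLC29A1 (0.739), CSMD1 (0.718) and RYR3 (0.706). None of these nearest genes is another of the 9.

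Other genes of the same fields were set beside the 9. Of 30 symbols listed for CA1, CA2, CA3 or pyramidal cells in general, of which NECTIN3 and PVRL3 name the same gene, 18 lay above the filter, and 0 of the 18 had an unadjusted p under 0.05. Among CA1 genes MPPED1 differed by -0.07 ± 0.10 and GPR161 by 0.09 ± 0.06 log2. Among CA2 genes NECAB2, a calcium-binding protein, differed by -0.16 ± 0.10, PCP4, a calmodulin regulator, by 0.03 ± 0.13, CACNG5 by -0.01 ± 0.08 and PTPN5, a striatum-enriched phosphatase, by -0.07 ± 0.08. Among CA3 genes the granule protein gene CHGB differed by 0.11 ± 0.06, the potassium channel gene KCNQ5 by 0.13 ± 0.07, ELAVL2 by -0.06 ± 0.09 and the kainate receptor gene GRIK4 by -0.05 ± 0.07. None of these values was larger than 2 SE.

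The split along the first component ran through these lists as well. Among CA2 genes NECAB2 had an r of -0.916 with the component, on the side of WFS1, while AMIGO2 was on the other side. Of the 7 measured general pyramidal genes 2 were positive and 5 negative. LMO3, a LIM-only protein, was at 0.930 and NEUROD6, a transcription factor of pyramidal cells, at 0.912, on the side of the brightest probe set of MAN1A1, whereas SLC17A7, the vesicular glutamate transporter, was at -0.823 and NRGN, neurogranin, at -0.739. In HR and LR these 4 differed by 0.24 ± 0.14, 0.13 ± 0.14, -0.07 ± 0.08 and -0.09 ± 0.08 log2.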

How the data were processed

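The authors deposited log2 values for each probe set after robust multichip averaging (RMA). RMA corrects background, sets all arrays on 1 distribution and summarises probes, so a shift shared by most transcripts cannot be seen. The submitters' processing notes name GCOS 1.1.1. Arrays have no read depth, and their number limits the precision. The table held 47845 probe sets. After leaving out 123 controls, those with a mean above the median of the means were kept (23861). Probe set symbols came from the platform annotation and positions from the Sscrofa 11.1 gene table, where 9 of 9 genes matched by symbol. Replicate numbers only name arrays and pair nothing. All 20 columns of samples were used.

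The HR against LR test was that of limma 3.58.1 (lmFit, eBayes, two-sided) in R 4.3.3, with the Benjamini-Hochberg method applied to the p-values of the 23861 probe sets at a threshold of 0.05. Correlations over arrays used two-sided permutation tests with 100000 resamples. The first principal component was oriented to be higher in HR, and the GC-rich background level was the mean of 24 control probe sets of GC class 18 or more. P-values measure the spread between animals, 1 array each. Scripts were tested on simulated data. Alternatives covered filters, centring, covariates, array weights, averaging of probe sets, a Wilcoxon test and leaving out arrays. Relations with the GC-rich background level and the title number, the removal of each from the pairs, and the use of the kept probe set least like the brightest for MAN1A1 or ZBTB20 were added after seeing the data.

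The 9 genes and all lists were chosen with earlier results of these data known. The rule for named genes took the 9 genes, the 3 genes nearest to each by r, the 4 brightest measured genes of each list of field genes, and the brightest gene of each cell type list. The examples of the marker lists outside this rule were chosen after their values were seen.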

Additional observations from a re-analysis of the deposited data

Results flagged for a closer look

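A sample far from the others was looked for in 18 groups, each gene in HR and in LR, of which chance flags about 1 in 20. BOK in LR replicate 7 was 6.49 on the log2 scale, where the next lowest LR array was 6.99. ZBTB20 in LR replicate 9 was 9.58, where the next highest LR array was 9.31.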

How the results depend on the processing

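No HR minus LR difference of the 9 genes passed the adjusted threshold in limma under any of the alternatives, but 8 of the 9 changed sign under at least 1 alternative, all but NECAB1. Group and title number are largely confounded, so a fit with both can hardly tell them apart. When the title number was a covariate, the differences (log2) were 0.0627 for WFS1, 0.0024 for FIBCD1, 0.0403 for POU3F1, -0.0243 for MAN1A1, 0.10 for BOK and -0.19 for CPNE4, all of the other sign than without it. With the GC-rich background level this held for POU3F1 (0.0750), MAN1A1 (-0.0317), BOK (0.0787) and CPNE4 (-0.0450), with the first component for POU3F1 (0.0425) and BOK (0.0249), and without its 2 end arrays for POU3F1 (0.0271) and BOK (0.0330). AMIGO2 was 0.0142 with the choroid plexus level and 0.0347 with array weights, BOK 0.0128 and ZBTB20 0.000817 as differences of the group medians, given with the exact Wilcoxon test, and ZBTB20 0.0645 as the mean of its probe sets. Leaving out 1 array gave -0.0834 to 0.0138 for POU3F1, -0.0970 to 0.0088 for BOK, -0.0538 to 0.0378 for AMIGO2 and -0.0449 to 0.0346 for ZBTB20. The number of the 9 genes with an unadjusted p under 0.05 was 2 with the choroid plexus level and with array weights (WFS1 and MAN1A1), and 0 to 2 when 1 array was left out. Of the 23861 kept probe sets, 4730 had such a p with the choroid plexus level and 5611 with array weights. The 2 of 9 were thus near the share of probe sets in general. When 1 array was left out, 1888 to 4497 kept probe sets had such a p. Over all kept probe sets 0 passed the adjusted threshold, against 947 with array weights and 110 without HR replicate 1, and none of those was a brightest probe set of the 9 genes. Of the 68 genes of the other lists above the filter, 5 had an unadjusted p under 0.05, against 1 with the title number and 10 with the first component. The kept probe sets with such a p changed alike, from 2750 of 23861 to 675 and 3230.

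Of 36 pairs 13 passed, against 0 with the first component removed, 0 with the GC-rich background level removed, 3 with the title number removed, 2 without the 2 end arrays, 23 with another probe set of ZBTB20, 12 with the other of MAN1A1 and 2 to 16 when 1 array was left out. With the component removed the r of WFS1 was -0.0387 with FIBCD1, -0.13 with POU3F1 and 0.12 with MAN1A1, and that of MAN1A1 was 0.31 with FIBCD1 and 0.12 with POU3F1. With the GC-rich background level removed the r of MAN1A1 with AMIGO2 was -0.0858. With the other probe set of MAN1A1 its r was 0.584 with WFS1, 0.511 with FIBCD1, 0.430 with POU3F1 and -0.677 with AMIGO2. Of the relations with array measures 16 passed, against 6 without the end arrays and 6 of 54 with the 6 measures planned first. That smaller family holds 7 of the 16, and the 1 it lost was AMIGO2 with the first component (permutation adjusted p = 0.0717). The cause of these changes was not tested. No paired analysis was possible because the replicate numbers are in accession order and pair nothing.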
